A study of Rattus norvegicus with 6 samples.

Results

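Haus2, A630010A05Rikl, Synpo2, Ercc6l2, Pik3r5, Tipin, Nek5 and Spetex2l3 are 8 of the 25629 genes in the files, and each symbol matched 1 gene. They were selected on their difference between naloxone and saline libraries in several kinds of spiny neuron of these same samples. The difference between naloxone and saline in spiny neurons is therefore given as a description, library by library and with no test. Tests were run only in glia, between the sexes of the nuclei and between cell types.

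All animals were adult Sprague-Dawley rats, 90 to 120 days old, that had self-administered heroin under fixed-ratio and progressive-ratio schedules for 14 days, and there was no group without heroin. After the final session they received saline or naloxone, and tissue was taken 1 h later. Bilateral punches of the nucleus accumbens from 12 rats (6 male, 6 female) were pooled into 6 droplet libraries of single nuclei, 3 from saline rats (saline 1 to 3) and 3 from naloxone rats (naloxone 4 to 6), each holding nuclei of both sexes. These counts leave 1 male and 1 female rat for each library, provided that the punches of no rat were divided between libraries.

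Spiny neurons are the GABAergic projection neurons that make up most of the nucleus accumbens, and they are classed by the dopamine receptor they express, Drd1 or Drd2. Heroin acts through opioid receptors, of which the mu receptor is the main one. Naloxone is an antagonist that displaces opioids from these receptors and precipitates withdrawal in dependent animals. The 8 genes belong to no single pathway. Haus2 is a subunit of augmin, the complex that nucleates new microtubules on existing ones. Synpo2 (myopodin) binds actin. Pik3r5 is the p101 regulatory subunit of phosphoinositide 3-kinase gamma, which responds to G-protein beta-gamma subunits. Tipin partners Timeless in the complex that protects replication forks. Ercc6l2 is an SNF2-family helicase-like protein of DNA repair, Nek5 a NIMA-related kinase and Spetex2l3 a gene of a multi-copy rodent family.

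The promoters of 2 genes are printed because they stand for the opposite directions seen below in every spiny neuron gate: Haus2 was lower and Ercc6l2 higher in naloxone libraries. Each runs from 250 bases before to 50 bases after a RefSeq start, in the GRCr8 assembly, 5′ to 3′ on the gene's strand. The Haus2 window is chr3:128006644-128006943 (plus strand) and the Ercc6l2 window chr17:1316007-1316306 (minus strand). Opioid receptors lower cAMP, so the core of the cAMP response element was searched, and capitals mark its only match.
Haus2: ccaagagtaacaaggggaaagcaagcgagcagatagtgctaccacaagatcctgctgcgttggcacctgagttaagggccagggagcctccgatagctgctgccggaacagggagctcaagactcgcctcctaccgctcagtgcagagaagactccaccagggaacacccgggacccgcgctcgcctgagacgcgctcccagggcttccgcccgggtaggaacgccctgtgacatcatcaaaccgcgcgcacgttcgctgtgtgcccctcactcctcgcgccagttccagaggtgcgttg
Ercc6l2: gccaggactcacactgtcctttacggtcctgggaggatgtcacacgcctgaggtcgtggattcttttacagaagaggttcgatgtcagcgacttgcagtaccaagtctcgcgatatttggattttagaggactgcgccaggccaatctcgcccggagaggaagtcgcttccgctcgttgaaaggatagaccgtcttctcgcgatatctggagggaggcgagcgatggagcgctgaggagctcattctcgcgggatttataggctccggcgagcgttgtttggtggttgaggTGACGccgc
RefSeq listed 15 start windows for the 8 genes. The core TGACG, searched on both strands, was in 4 of the 15 windows and in 21.2% of 33469 promoters of the same length. These 4 windows belonged to A630010A05Rikl, Ercc6l2, Spetex2l3 and Synpo2. A630010A05Rikl had 4 windows and Spetex2l3 had 5, so a count of genes cannot be set against the share of promoters. The whole element TGACGTCA, which holds the core on both strands, was in none of the 15 windows and in 1.83% of all promoters. These are letter matches only.

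The 6 libraries held 55739350 to 76272798 unique molecular identifiers (UMIs). Nuclei were sorted into gates by marker UMIs: 3695 in a Drd1 gate, 4058 in a Drd2 gate, 2381 in a Chst9 and Grm8 gate, 689 in an Otof gate (Casz1, Mdfic and Otof), and 3557 astrocyte, 9489 oligodendrocyte, 1205 oligodendrocyte precursor (OPC) and 676 microglia nuclei. Expression is given in CPM, UMIs per 1000000 UMIs of the same gate and library. Summed spiny neuron markers stood between 7660 and 10206 CPM per library in the Drd1, Drd2 and Otof gates but between 4068 and 4582 CPM in the Chst9 gate, which is therefore called by its genes. Unlike the others this gate set no minimum of spiny neuron markers, and it is counted among the 4 spiny neuron gates below by that marker level alone. In the Drd1 gate 38.35% of nuclei sat at the lowest marker count allowed and in the Otof gate 29.75%. Of 64260 barcodes, 463 occurred in more than 1 library.

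Haus2 was lower in every naloxone library than in every saline library in each of the 4 spiny neuron gates. In Drd1 nuclei its level was 36.4, 26.9 and 26.4 CPM in saline 1 to 3 and 11.9, 9.11 and 17.9 CPM in naloxone 4 to 6. In Drd2 nuclei the saline values were 32.6, 24.7 and 26.8 CPM and the naloxone values 12.4, 9.30 and 14.9 CPM. The lowest saline library was above the highest naloxone library in both. In Chst9 nuclei saline libraries lay between 25.3 and 35.2 CPM and naloxone libraries between 13.9 and 15.0 CPM, the tightest naloxone group of the 4 gates. In the small Otof gate the ranges were 33.6 to 36.3 CPM and 4.23 to 15.1 CPM, with as few as 2 UMIs in a naloxone library. The fitted log2 change, naloxone over saline, was -1.17 ± 0.22 (SE, n = 3 against 3) in Drd1, -1.18 ± 0.18 in Drd2, -0.98 ± 0.18 in Chst9 and -1.40 ± 0.27 in Otof nuclei. Leaving out any single library kept it between -1.55 and -0.93 in Drd1 nuclei and between -1.40 and -0.98 in Drd2 nuclei.

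A630010A05Rikl, named after a mouse cDNA clone, was also lower after naloxone. Its Drd1 values were 96.6, 72.5 and 88.6 CPM in saline and 33.3, 52.5 and 38.0 CPM in naloxone libraries. Its Drd2 values were 94.99, 74.6 and 99.7 against 26.7, 57.2 and 31.0 CPM, and its Chst9 values 84.6, 61.5 and 83.1 against 32.5, 58.5 and 32.9 CPM. In all 3 gates saline 2 was the lowest saline library and naloxone 5 the highest naloxone library, and the groups did not overlap. In Otof nuclei they did: saline 2 had 42.7 CPM and naloxone 5 had 43.6 CPM. The fitted log2 changes were -1.06 ± 0.14 in Drd1, -1.20 ± 0.20 in Drd2, -0.87 ± 0.18 in Chst9 and -0.84 ± 0.29 in Otof nuclei (SE, n = 3 against 3).

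Synpo2 was the third gene lower after naloxone. It had 13.2, 17.5 and 12.6 CPM in saline and 7.496, 8.20 and 6.36 CPM in naloxone libraries of the Drd1 gate, with no overlap. In Chst9 nuclei, where it was highest of the 4 gates, it had 28.5, 29.4 and 24.2 against 22.2, 20.03 and 17.0 CPM. In Drd2 nuclei the groups overlapped, since naloxone 5 (12.9 CPM) was above saline 1 (11.8 CPM). The log2 change was -0.99 ± 0.18 in Drd1, -0.55 ± 0.19 in Drd2 and -0.46 ± 0.17 in Chst9 nuclei. In Otof nuclei only 41 UMIs were counted and the gene did not pass the filter on low counts.

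Ercc6l2 gave the smallest and most even difference. Its Drd1 values were 101, 105 and 107 CPM in saline and 155, 158 and 148 CPM in naloxone libraries. The groups were apart in all 4 gates, with Drd2 ranges of 110 to 124 against 134 to 156 CPM and Chst9 ranges of 151 to 167 against 200.01 to 206 CPM. The log2 change was 0.55 ± 0.07 in Drd1, 0.33 ± 0.08 in Drd2, 0.35 ± 0.08 in Chst9 and 0.33 ± 0.13 in Otof nuclei. In Drd1 nuclei it moved between 0.53 and 0.56 when single libraries were left out. In Otof nuclei it was 0.20 without saline 1.

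Pik3r5 was higher after naloxone but varied between naloxone libraries. In Drd1 nuclei it had 8.71, 8.28 and 11.8 CPM in saline 1 to 3 and 13.9, 30.1 and 26.3 CPM in naloxone 4 to 6. In Drd2 nuclei naloxone 4 (16.4 CPM) lay below saline 3 (16.7 CPM), while naloxone 5 and 6 stood at 37.0 and 28.4 CPM. Naloxone 4 was thus the lowest naloxone library in both. In Otof nuclei it was not: the values were 8.30, 5.57 and 5.93 against 19.0, 17.6 and 26.0 CPM. These rested on 6 to 9 UMIs per saline library and as few as 9 in a naloxone library, too few to order the libraries. The log2 change was 1.29 ± 0.24 in Drd1, 0.99 ± 0.24 in Drd2, 0.83 ± 0.27 in Chst9 and 1.75 ± 0.34 in Otof nuclei. It was 0.58 to 0.94 in Chst9 nuclei when single libraries were left out.

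Tipin was close to constant between saline libraries and about a factor of 2.01 higher with naloxone in Drd1 nuclei. There it had 7.21, 7.01 and 7.71 CPM in saline and 12.6, 17.0 and 14.8 CPM in naloxone libraries. The Drd2 values were 5.60, 6.83 and 7.11 against 11.9, 16.9 and 12.4 CPM, and the Chst9 values 13.8, 11.3 and 13.6 against 17.1, 30.0 and 20.7 CPM. The groups were apart in all 4 gates, and naloxone 5 was the highest library in each. The log2 change was 1.01 ± 0.16 in Drd1, 1.08 ± 0.18 in Drd2, 0.83 ± 0.22 in Chst9 and 1.14 ± 0.35 in Otof nuclei.

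Spetex2l3 had 10.8, 19.1 and 22.4 CPM in saline and 48.9, 40.2 and 34.4 CPM in naloxone libraries of the Drd1 gate. In Chst9 nuclei it had 4.59, 9.23 and 12.5 against 29.0, 35.8 and 21.4 CPM. The groups were apart in the Drd1, Drd2 and Chst9 gates, with log2 changes of 1.20 ± 0.20, 1.05 ± 0.28 and 1.66 ± 0.26. In Otof nuclei they overlapped (5.19, 14.9 and 21.7 against 14.8, 20.4 and 22.3 CPM). The Otof log2 change of 0.46 ± 0.35 was 0.13 without saline 1 and 1.00 without saline 3, and the Drd2 value was 1.56 without saline 3. Saline 1 was the lowest saline library in every spiny neuron gate. The files list 18 genes under Spetex symbols, and reads shared between copies could have been split or dropped in counting, so the value of any single copy is uncertain.

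The difference of Nek5 in Drd1 and Drd2 nuclei rested on single libraries. In Drd1 nuclei it had 9.31, 13.2 and 29.0 CPM in saline and 21.6, 38.6 and 20.05 CPM in naloxone libraries, so saline 3 exceeded both naloxone 4 and naloxone 6. In Drd2 nuclei the values were 3.998, 9.79 and 18.7 against 16.8, 20.3 and 9.04 CPM, again overlapping. The Chst9 gate was the exception, with 29.6, 30.8 and 38.9 CPM against 45.2, 74.7 and 54.7 CPM. The log2 change was 0.59 ± 0.33 in Drd1, 0.46 ± 0.39 in Drd2, 0.54 ± 0.43 in Otof and 0.81 ± 0.16 in Chst9 nuclei. Without saline 3 it was 1.23 in Drd1 and 1.12 in Drd2 nuclei. In Drd2 nuclei it was 0.73 without naloxone 6. Without naloxone 5 it was 0.23 in Drd1 and 0.18 in Drd2 nuclei, and without saline 1 it was 0.30 and 0.10. In the Otof gate it was 1.10 without naloxone 6, 0.25 without naloxone 4, 0.24 without naloxone 5, 0.31 without saline 1 and 0.84 without saline 2.

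The number of the 8 genes whose saline and naloxone libraries did not overlap was 7 in the Drd1 gate, 5 in the Drd2 gate, 8 in the Chst9 gate and 4 in the Otof gate. The same held for 17.7%, 17.7%, 14.6% and 12.7% of all genes tested in those gates. Because these differences chose the genes, nothing is read from the excess. The median log2 change of all genes was 0.01 in Drd1 nuclei and within 0.01 of 0 in the other 3 gates.

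**Figure D1:**
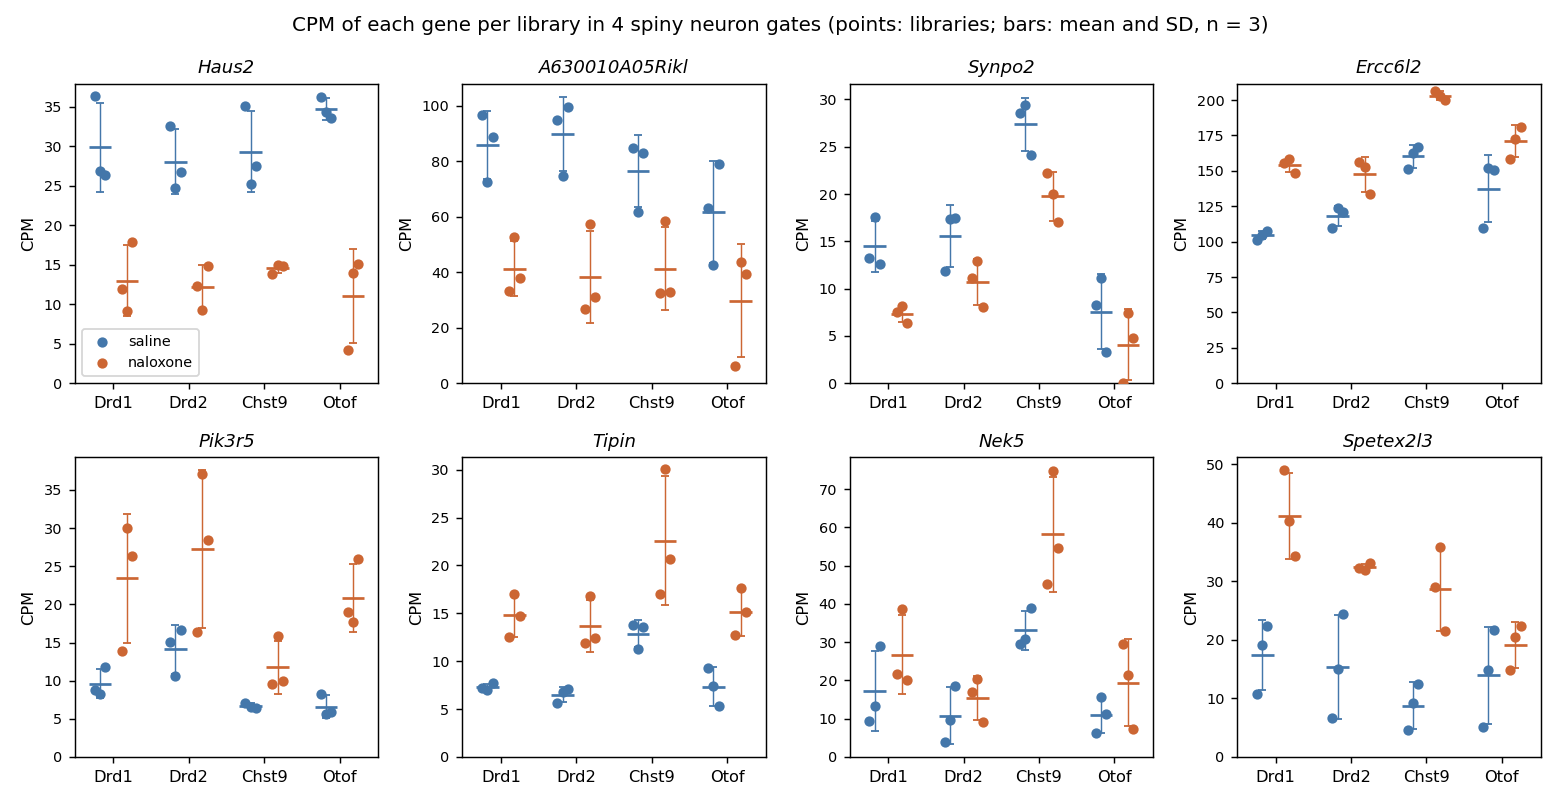
CPM of each gene (y axis, linear) in the 4 spiny neuron gates (x axis), with 1 point per library and the mean and SD of 3 saline (blue) and 3 naloxone (orange) libraries. Haus2, Ercc6l2 and Tipin are apart in every gate, whereas Nek5 overlaps in all but the Chst9 gate.

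Splitting each library by the sex of its nuclei, read from Xist and Y-linked UMIs, gave 12 sums for all spiny neurons together (494 to 1129 nuclei each). The 6 naloxone and 6 saline sums were apart for 3 of the 8 genes, and for 1.7% of 14253 genes tested. These were Haus2 (8.89 to 20.4 CPM with naloxone, 22.1 to 40.0 CPM with saline), Ercc6l2 (137 to 178 against 111 to 127 CPM) and Tipin (9.004 to 20.2 against 6.56 to 8.53 CPM). For these 3 genes the difference was present in the nuclei of both sexes in every library. The sums are of the same contrast that chose the genes, so nothing is read from the excess over all genes. For the other 5 genes between 2 and 4 of the 6 naloxone sums fell within the saline range.

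A630010A05Rikl differed most between the nuclei of 1 library. In naloxone 4 female nuclei had 58.2 CPM (95% Poisson interval 51.5 to 65.6) and male nuclei 7.85 CPM (5.64 to 10.7). In naloxone 6 the order was the opposite, with 11.8 CPM (9.75 to 14.2) in female and 58.3 CPM (53.5 to 63.5) in male nuclei. In naloxone 5 the sexes were close, at 59.6 CPM in female and 49.7 CPM in male nuclei. The low sums were therefore those of 1 sex in 2 of the 3 naloxone libraries, and the other 4 naloxone sums lay between 49.7 and 59.6 CPM. Female nuclei of saline 2 had 54.3 CPM, inside that range, and the other saline sums were 82.1 to 96.0 CPM. At least 1 UMI was found in 5.86% of male nuclei of naloxone 4 and in 8.71% of female nuclei of naloxone 6, against 28.0% to 58.7% of nuclei in the 6 saline sums. These intervals cover counting error only.

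The same sums of A630010A05Rikl were low in each spiny neuron gate taken alone. Male nuclei of naloxone 4 had 9.82 CPM in the Drd1, 7.02 CPM in the Drd2, 8.01 CPM in the Chst9 and no UMI in the Otof gate, where 3 counts would be 10.9 CPM. Female nuclei of naloxone 6 had 8.27, 19.1, 7.30 and 3.04 CPM. In the Drd1 gate the remaining naloxone sums were 48.8 to 65.5 CPM, several times these values.

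Pik3r5 and Tipin had their lowest naloxone values in the same male nuclei of naloxone 4 and female nuclei of naloxone 6. Pik3r5 had 9.58 and 11.6 CPM there, within the saline range of 4.39 to 18.1 CPM, and 21.8 to 38.2 CPM in the other 4 naloxone sums. Tipin had 9.004 and 9.95 CPM there and 16.8 to 20.2 CPM in the other 4. Ercc6l2 also had its lowest naloxone values there (153 and 137 CPM), so 4 of the 8 genes shared this order. Among all genes tested, these sums were the lowest pair for 13.5% and the highest pair for 5.52%; the pair was chosen after its values were seen. Synpo2 departed in another sum, male nuclei of naloxone 6, with 2.72 CPM against 10.3 to 12.9 CPM in the other 5 naloxone sums. Spetex2l3 was highest in male nuclei of naloxone 5 (59.3 CPM) and lowest in male nuclei of naloxone 6 (20.01 CPM). Provided that the punches of no rat were divided between libraries, each sum is 1 rat. Within a library the sex of the nuclei and the rat they came from then cannot be told apart.

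**Figure D2:**
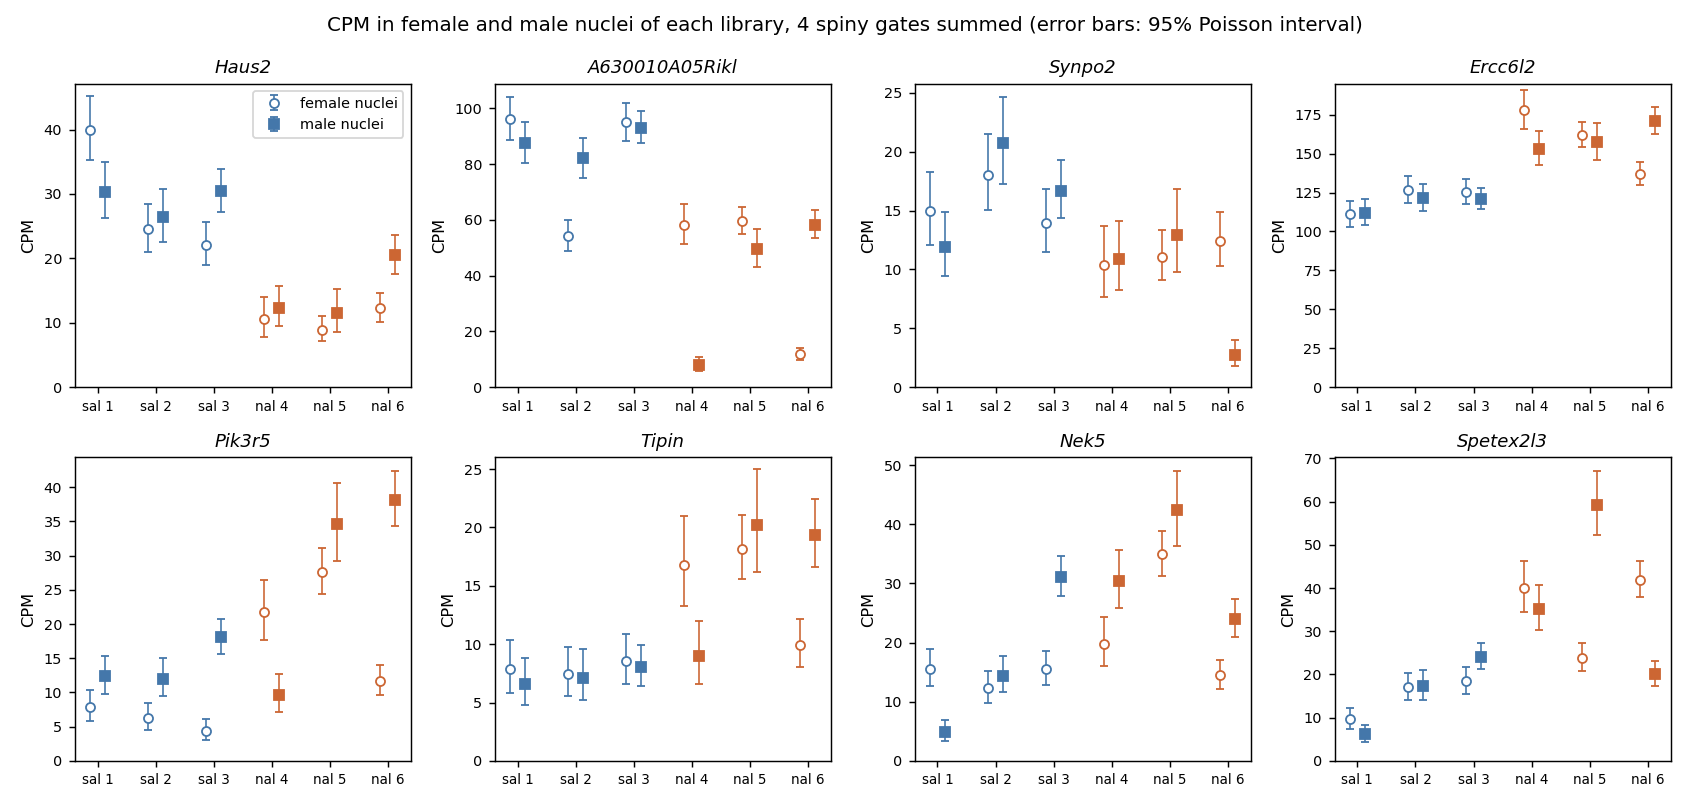
CPM of each gene (y axis, linear) in female (open circles) and male (filled squares) nuclei of saline (blue) and naloxone (orange) libraries on the x axis, all spiny neurons summed, with 95% Poisson intervals. The 12 sums separate by treatment for Haus2, Ercc6l2 and Tipin, and for A630010A05Rikl male nuclei of naloxone 4 (7.85 CPM) and female nuclei of naloxone 6 (11.8 CPM) lie apart.

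None of the 8 genes differed between male and female nuclei over the 6 libraries after adjustment, while 9 of 12409 genes did (0.0725%; edgeR's quasi-likelihood test, library as a block). At an unadjusted p under 0.05, for which the share of all genes is not given here, there was 1, and DESeq2 called 0. That 1 gene was Pik3r5, at 20.8 CPM in male and 13.3 CPM in female nuclei, higher in male nuclei of 5 of 6 libraries (log2 difference 0.78 ± 0.30, edgeR adjusted p = 0.919). Only with no filter on low counts did edgeR call this difference (0.77), a setting in which it called 49 genes.

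Glial nuclei were not used to choose the genes, but they come from the same libraries and animals. The tests in glia are therefore not independent of the choice, and nothing is read from an excess of calls. In oligodendrocytes, the myelinating glia, 6 of the 8 genes passed the filter on low counts and 2 rose with naloxone, against 0.38% of 11578 genes called higher and 0.501% called in either direction. Spetex2l3 had 11.2, 7.27 and 8.11 CPM in saline and 22.7, 20.9 and 18.8 CPM in naloxone libraries (log2 change 1.26 ± 0.21, edgeR adjusted p = 0.0309). Tipin had 7.77, 6.63 and 8.33 CPM in saline and 14.3, 22.6 and 18.5 CPM in naloxone libraries (1.23 ± 0.23, edgeR adjusted p = 0.0487). Both were higher in 3 of 3 naloxone libraries, and both changes were as large as in Drd1 nuclei. The calls were not stable: without any 1 library Spetex2l3 had an edgeR adjusted p of 0.0577 to 0.139 (log2 change 1.13 to 1.43), and Tipin passed only without naloxone 4 (adjusted p = 0.0391), with 0.0971 to 0.207 without each other library. Summed spiny neuron markers stood at 312 to 577 CPM in these nuclei, and their part in the result was not tested.

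Haus2 had lower values with naloxone in glia too, and did not pass the test with the filter on low counts. Its oligodendrocyte values were 38.0, 25.0 and 27.4 CPM in saline and 11.7, 13.0 and 23.7 CPM in naloxone libraries (log2 change -0.90 ± 0.28, edgeR adjusted p = 0.234), and with no filter edgeR called the change (adjusted p = 0.00297). Its astrocyte values were 24.3, 26.2 and 18.9 against 12.2, 12.1 and 13.6 CPM (-0.84 ± 0.24, adjusted p = 0.232). In OPCs they were 19.6, 20.9 and 26.4 against 4.50, 14.6 and 9.99 CPM (-1.27 ± 0.40, adjusted p = 0.847). The naloxone libraries were below all saline libraries in these 3 glial gates. The share of all genes whose groups do not overlap in glia is not given here, so nothing is read from this.

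A630010A05Rikl went the other way in astrocytes, the glia that take up glutamate and potassium around synapses. It had 2.51, 8.22 and 6.13 CPM in saline 1 to 3, 108 CPM in naloxone 4, 7.86 CPM in naloxone 5 and 137 CPM in naloxone 6. Naloxone 5 lay within the saline values, and the other naloxone libraries stood more than 10 times above them. The log2 change was 3.86 ± 0.74, with an edgeR adjusted p of 0.0570. It was 3.68 without naloxone 4 (adjusted p = 0.128), 4.37 without naloxone 5 (adjusted p = 1e-05) and 3.33 without naloxone 6 (adjusted p = 0.144), so the call depends on which library is kept; it was 3.60 without saline 1 (adjusted p = 0.336). edgeR also called it without nuclei that held UMIs of both sexes (3.83, adjusted p = 0.0439) and with no filter on low counts (3.87). Astrocytes were high in both sexes of naloxone 4 (96.3 CPM in female and 170 CPM in male nuclei) and of naloxone 6 (195 and 85.9 CPM). In both libraries the sex with the low spiny neuron value had the higher astrocyte value. The other 8 astrocyte sums were at most 28.1 CPM. In oligodendrocytes of naloxone 4 and 6 the gene was at 10.1 and 15.9 CPM, against 6.32 to 15.5 CPM in saline, so naloxone 6 was just above every saline library. In OPCs it had 22.6, 12.8 and 17.6 CPM in saline 1 to 3 and 23.6, 3.24 and 58.5 CPM in naloxone 4 to 6. There too naloxone 4 and 6 were above every saline library, by little in naloxone 4 (log2 change 0.74 ± 0.59, adjusted p = 0.918, and -0.22 without naloxone 6).

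**Figure D3:**
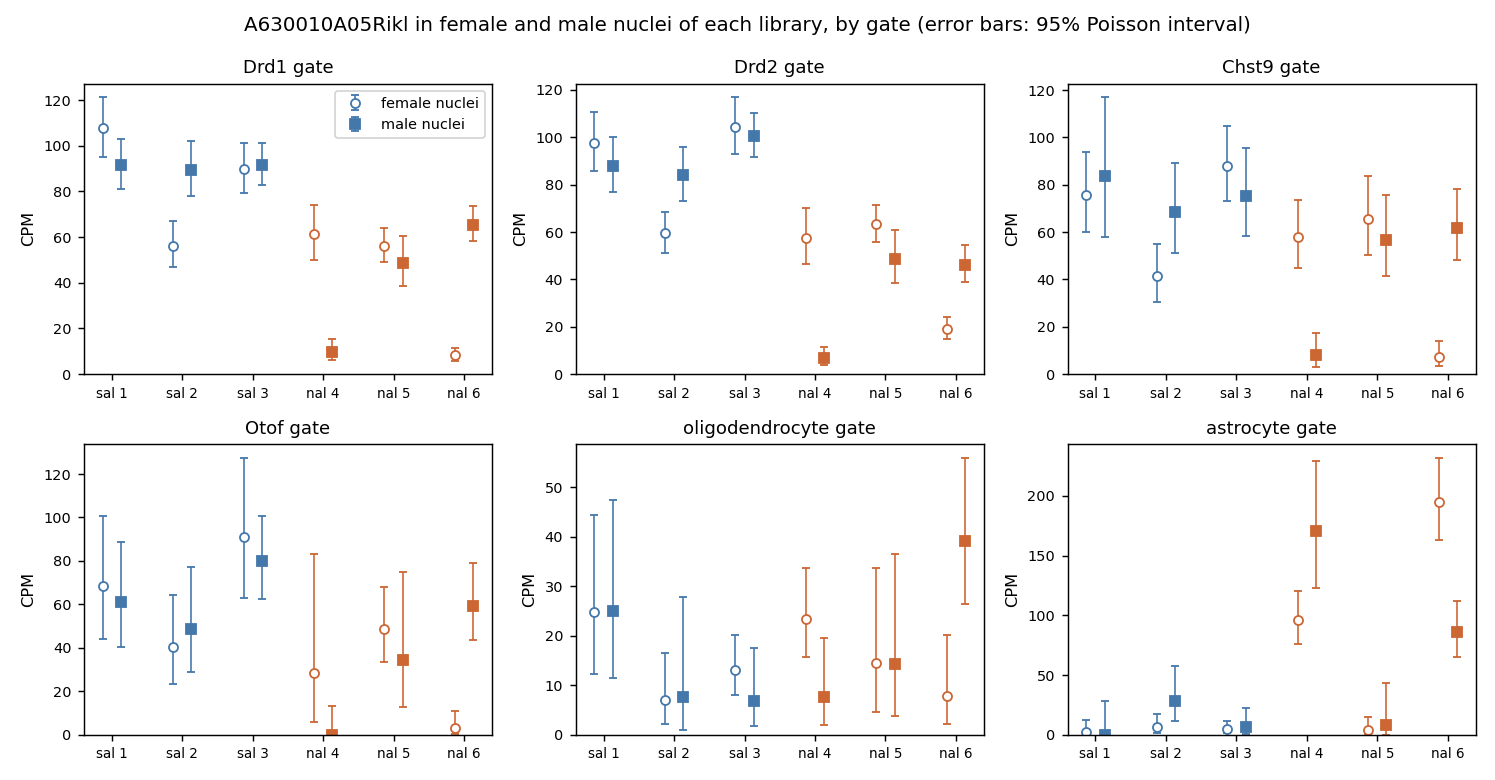
CPM of A630010A05Rikl (y axis, linear, scale differs by panel) in female (open circles) and male (filled squares) nuclei of each library (x axis), in the 4 spiny neuron gates, oligodendrocytes and astrocytes, with 95% Poisson intervals. Male nuclei of naloxone 4 and female nuclei of naloxone 6 are low in spiny neurons, and both sexes of these libraries are high in astrocytes (85.9 to 195 CPM).

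No other test of a member in glia passed with the filter on low counts. In astrocytes edgeR called 0 of 6 tested members (0.21% of all genes), with 4 at an unadjusted p under 0.05, and DESeq2 called 0. In OPCs edgeR called 0 of 5 (0.0% of all genes), with 3 at an unadjusted p under 0.05. In microglia it called 0 of 2 (0.0246% of all genes), with 0 at an unadjusted p under 0.05. DESeq2 called 0 in each. The share of all genes at that unadjusted threshold is not given here, so nothing is read from the unadjusted counts. Spetex2l3 in OPCs had 31.7, 39.5 and 40.3 CPM in saline and 59.6, 71.3 and 68.5 CPM in naloxone libraries. Its log2 change was 0.82 ± 0.19, with an edgeR adjusted p of 0.630. Tipin in OPCs had a log2 change of 1.06 ± 0.39 (adjusted p = 0.847) and in astrocytes of 0.12 ± 0.25 (adjusted p = 0.925). Ercc6l2 had values of 0.17 to 0.32 in the 4 glial gates (adjusted p = 0.262 to 0.920). The microglial value of 0.22 was 0.04 without saline 1, 0.13 without naloxone 5 and 0.42 without saline 3, and the OPC value of 0.17 was 0.10 without naloxone 5, 0.11 without saline 1, and 0.27 without naloxone 6 or saline 3. Pik3r5 in microglia had 0.07 ± 0.20 (adjusted p = 0.954). Whether changes in glia differ from those in spiny neurons was not tested.

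**Figure D4:**
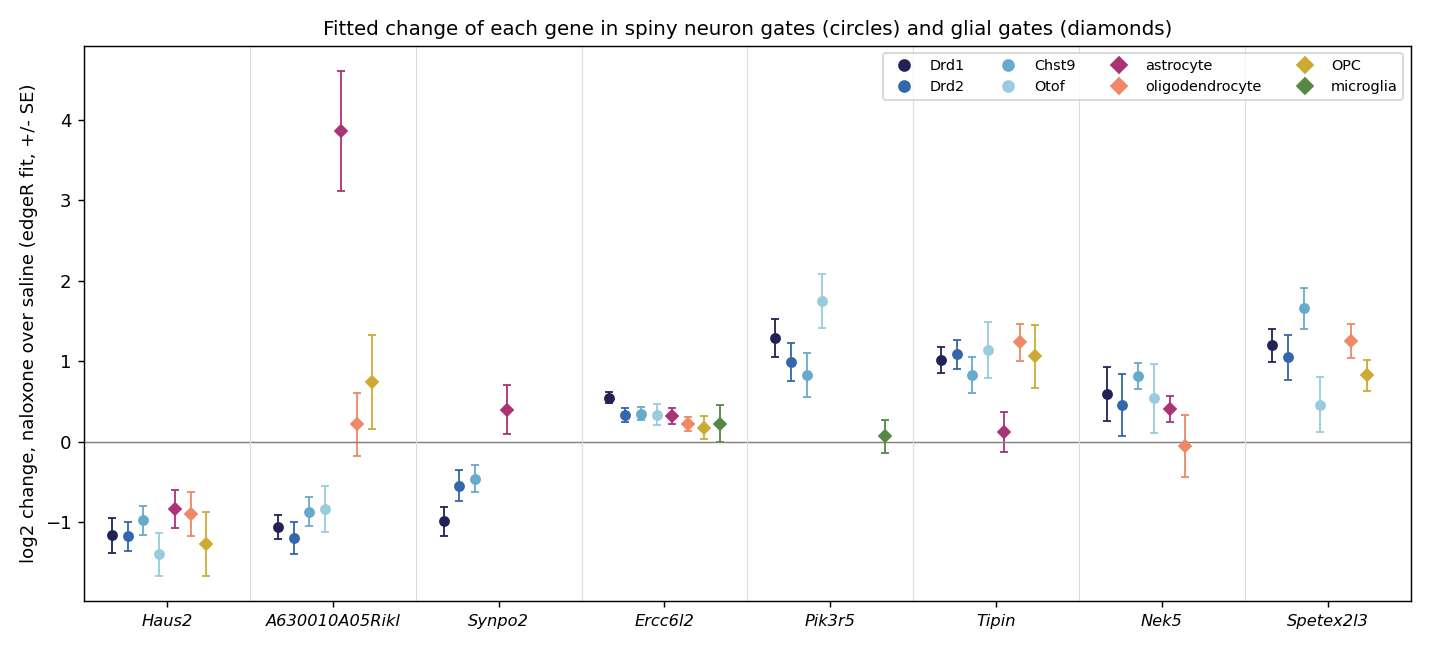
Fitted log2 change, naloxone over saline (y axis, with SE), of each gene (x axis) in spiny neuron gates (circles) and in glial gates where it passed the filter on low counts (diamonds). Haus2 is below 0 in all 7 gates shown, whereas A630010A05Rikl is below 0 in spiny neurons and at 3.86 in astrocytes.

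The level of each gene across cell types was compared within libraries, spiny neurons together against each glial gate. Of 32 pairs of gene and glial gate 19 had the same direction in all 6 libraries (two-sided exact permutation of signs over libraries, p = 0.03125, the smallest it can give). Adjusted over the 32 pairs this permutation test gave them p = 0.0526, so no pair passed. Levels below are means ± SD over 6 libraries.

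Pik3r5 stood at 207 ± 20 CPM in microglia, the resident immune cells of the brain, and 16.9 ± 8.5 CPM in spiny neurons, higher in microglia in 6 of 6 libraries. In astrocytes, oligodendrocytes and OPCs it rested on 3, 11 and 5 UMIs, with means of at most 1.26 CPM. The spiny neuron level was thus above that of these glia in 6 of 6 libraries. Summed microglial markers were 15.2 to 26.4 CPM in the Drd1 and Drd2 gates and 5617 to 7614 CPM in microglia. Among spiny neurons Pik3r5 averaged 20.7 ± 10.0 CPM in the Drd2, 16.5 ± 9.3 CPM in the Drd1, 13.7 ± 8.4 CPM in the Otof and 9.22 ± 3.56 CPM in the Chst9 gate, and neighbours in this order differed by less than the larger of their SDs.

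Ercc6l2 was higher in every glial gate than in spiny neurons (140 ± 23 CPM) in 6 of 6 libraries. It averaged 371 ± 34 CPM in oligodendrocytes, 352 ± 44 CPM in astrocytes, 331 ± 46 CPM in OPCs and 288 ± 59 CPM in microglia. These glial levels did not differ from their neighbours beyond their SD. Tipin was lowest in spiny neurons together (11.7 ± 4.7 CPM) and oligodendrocytes (13.0 ± 6.5 CPM). The Chst9 gate alone averaged 17.7 ± 6.9 CPM. Tipin averaged 22.03 ± 4.6 CPM in astrocytes and 23.3 ± 14.7 CPM in microglia. The microglial mean rested on 25 UMIs, with 10.6 CPM in saline and 35.9 CPM in naloxone libraries. Haus2 was even across cell types, with means of 14.4 to 23.1 CPM.

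Nek5 and Synpo2 had their highest glial means in astrocytes, at 48.6 ± 9.1 and 26.6 ± 9.3 CPM, above spiny neurons in 6 of 6 libraries. In spiny neurons both were highest in the Chst9 gate, Nek5 at 45.6 ± 17.1 CPM and Synpo2 at 23.6 ± 4.8 CPM, against 13.1 ± 6.4 and 13.1 ± 3.7 CPM in the Drd2 gate. Over the saline libraries alone Synpo2 was higher in the Chst9 gate (27.4 CPM) than in astrocytes (23.8 CPM). Summed astrocyte markers were 305 to 443 CPM in the Chst9 gate and 583 to 745 CPM in the Drd2 gate, the opposite order. Spetex2l3 was highest in OPCs (51.8 ± 16.8 CPM), followed by spiny neurons (24.8 ± 11.6 CPM), and lowest in astrocytes (3.52 ± 2.24 CPM). A630010A05Rikl averaged 84.7 CPM in spiny neurons and 5.62 CPM in astrocytes of saline libraries, but 39.8 and 84.3 CPM in those of naloxone libraries. Over all 6 libraries spiny neurons averaged 62.2 ± 27.2 CPM, above oligodendrocytes (10.3 ± 4.4 CPM) in 6 of 6 libraries.

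**Figure D5:**
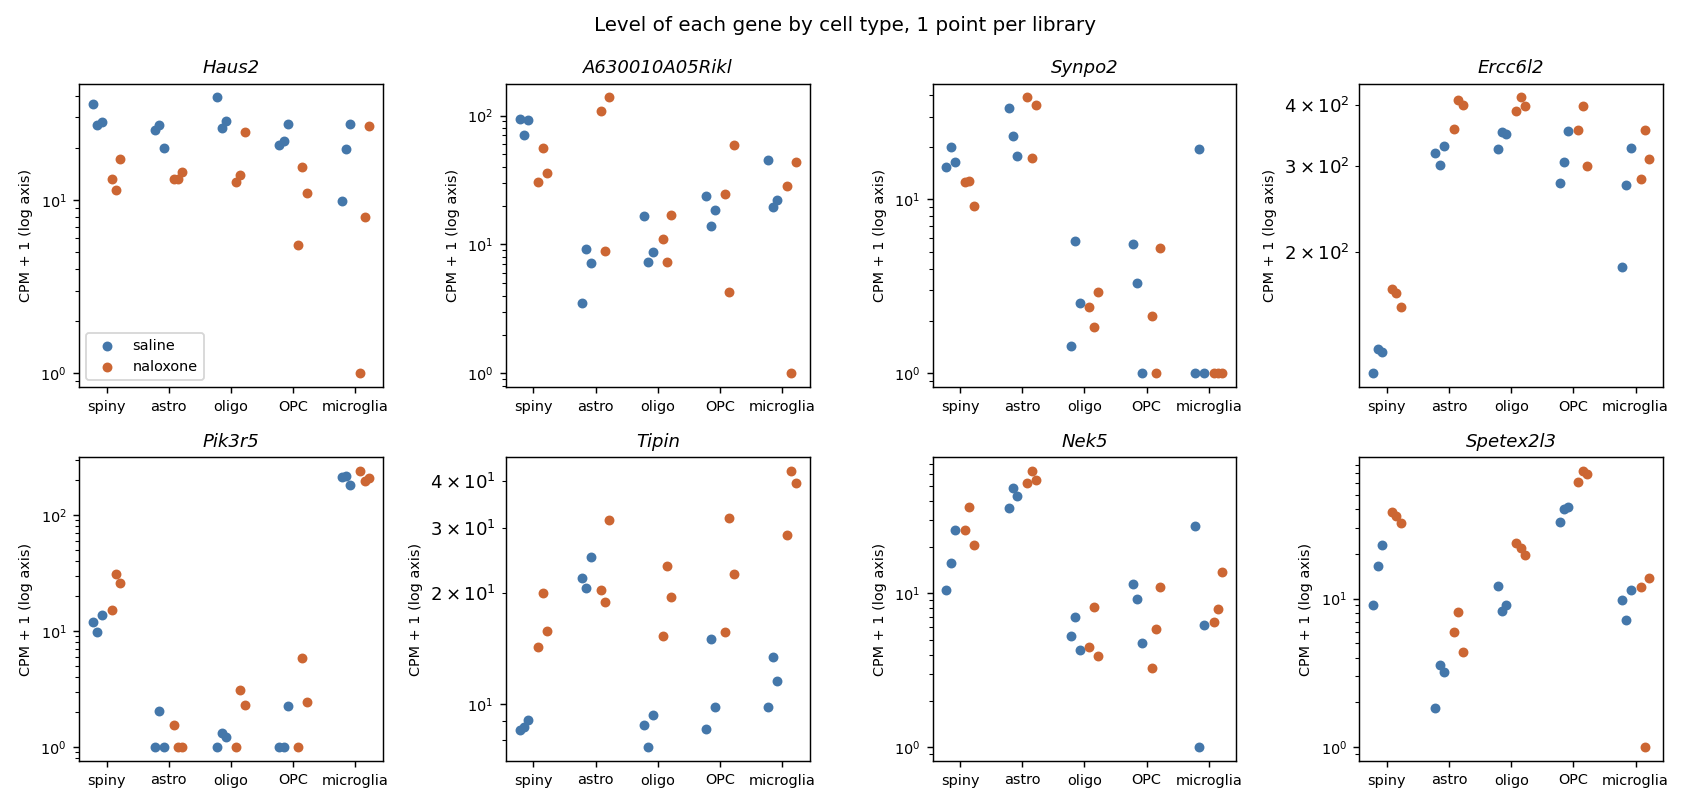
CPM plus 1 of each gene (y axis, log scale, differing by panel) in spiny neurons and 4 glial gates (x axis), with 1 point per saline (blue) or naloxone (orange) library. Pik3r5 is near 207 CPM in microglia and at most 1.26 CPM on average in the other glia, and Ercc6l2 is higher in all glia than in spiny neurons.

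Relatives and partners of the 8 genes were followed through the family and complex lists, with the members left out. In all spiny neurons together, where it called 0.119% of 14253 genes, edgeR called 0 of 35 tested genes of the lists. At that share nothing is read from 0 calls. At an unadjusted p under 0.05 there were 7 of these 35 genes, and DESeq2 called 0. Their median log2 change was 0.05, against 0.00 for all genes. The 7 other augmin subunits tested lay between -0.23 and 0.20, against -1.17 ± 0.17 for Haus2. Of Tipin's fork protection list, Clspn (Claspin, a replication checkpoint adaptor) and Wdhd1 had 0.03 and 0.02, against 1.01 ± 0.13 for Tipin. Timeless, the direct partner of Tipin, did not pass the filter on low counts and was not tested. Of the other 8 phosphoinositide 3-kinase genes tested, the largest value was 0.57 ± 0.39 for Pik3r6 (edgeR adjusted p = 0.563), the alternative regulatory subunit of the same kinase. The 8 other NIMA-related kinases tested lay between -0.13 and 0.24. Larger values were seen in 2 other lists, and edgeR called neither gene. Hells, of the helicase list, had 0.66, against 0.41 ± 0.07 for Ercc6l2. Synpo2l had 0.61 (1.02 in Drd1 nuclei), opposite in sign to Synpo2 (-0.64 ± 0.15). The other 3 Spetex genes tested were between 0.06 and 0.29, against 1.15 ± 0.25 for Spetex2l3. In oligodendrocytes edgeR called 0 of 29 such genes (0.501% of all genes), with 5 at an unadjusted p under 0.05. In astrocytes it called 0 of 26 (0.21% of all genes), with 4 at that threshold. DESeq2 called 1 gene of the lists in each of these 2 gates. Among all genes it called 138 in oligodendrocytes and 60 in astrocytes. The share of all genes at an unadjusted p under 0.05 is not given here, so nothing is read from these unadjusted counts.

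The neighbours of each gene on its chromosome were taken from the order of the RefSeq table (GRCr8), 3 on each side. Of 48 neighbours 26 were in the files and 22 were tested in all spiny neurons together. edgeR called 0 of the 22, against 0.119% of all genes, with 0 at an unadjusted p under 0.05, and DESeq2 called 0. The share of all genes at that unadjusted threshold is not given here, and nothing is read from these counts. No neighbour of Spetex2l3 was in the files, and of those of A630010A05Rikl only Ercc4 was tested. Haus2's neighbours Zfp106, Snap23, Lrrc57, Stard9, Cdan1 and Ttbk2 had log2 changes between -0.10 and 0.17. The largest change was that of Pik3r6, near Pik3r5, at 0.57 ± 0.39 (edgeR adjusted p = 0.563). Snapc5, near Tipin, had -0.33 ± 0.17 (edgeR adjusted p = 0.422).

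Genes most like each member were ranked by Pearson's r over the 12 sums by library and sex of all spiny neurons, among 8152 genes. The sums share libraries and depth, and treatment itself raises r for any gene that differs, so r is a description. The closest to Haus2 was Stk35 (r = 0.944), to A630010A05Rikl Clta (0.864) and to Ercc6l2 Chga (0.930). The closest to Tipin was Kdm1a (0.961), to Nek5 Def8 (0.909) and to Synpo2 Slc8a2 (0.884). For Spetex2l3 it was a gene without a symbol, ENSRNOG00000063531 (0.927). No member was among the 3 closest genes of another.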

How the data were processed

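Single-nucleus RNA of rat nucleus accumbens was measured in 6 libraries (3 saline, 3 naloxone). The deposited values are UMI counts per gene and barcode, not normalized by the authors, made with Cell Ranger 9.0.1 per the file headers. The submitters' processing notes also name mRatBN7.2, Seurat 5.2.1 and R 4.4.0. The protocol in the labels states 44592 sequenced nuclei, against 64260 barcodes deposited. No list of the authors' selected nuclei was used here.

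Of these, 61609 had at least 500 genes and no more than 5% of UMIs from mitochondrial genes. Gates were set by marker UMIs: at least 20 spiny UMIs (Pde10a, Rgs9, Rarb, Ano3) for the Drd1, Drd2 and Otof gates, at least 2 UMIs of a Drd1 list, 3 of a Drd2 list, 3 of both Chst9 and Grm8, or 2 of Casz1 and Mdfic with 1 of Otof, and at least 4 of a glial list. Nuclei carrying markers of another class above 0 to 5 UMIs were left out. No doublet caller was run, and 4.54% of gated nuclei carried both Xist and Y-linked UMIs. A nucleus was given a sex from at least 2 UMIs and 4 times those of the other sex.

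UMI counts were summed per gate and library and fitted with edgeR 4.0.16 (quasi-likelihood F-test, TMM, default filter, Benjamini-Hochberg over all genes, threshold 0.05). On simulated counts in which 200 genes had a log2 change of 1, 76.5% were recovered in the Drd1 gate, 68.5% in oligodendrocytes and 25% in microglia. False calls numbered 9, 10 and 3 in these gates, and 15 in astrocytes, where 59% were recovered. The counts were drawn with the spread that edgeR itself fitted to these data. Drd1 nuclei gave 41639131 UMIs and microglia 1023395. Levels were compared by an exact sign-flip test. The 8 genes, the lists and the tests were chosen with earlier results of these data known. All 8 genes were described in every gate, and genes of the lists were named where their value was largest or bore on a member. Alternatives were DESeq2, other size factors, no filter, stricter and looser gates, at least 1000 genes, nuclei with Xist and Y-linked UMIs left out, sums by sex, and each library left out. The gene most like Pik3r5 is not reported here.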

Additional observations from a re-analysis of the deposited data

How the results depend on the processing

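No paired analysis was possible because the replicate numbers 1 to 6 are not shared between saline and naloxone libraries. In the spiny neuron gates no log2 change of the 8 genes changed sign under any alternative run: 532 values stayed within 1 SD of the reported one and 5 moved further. This SD is not the SE given with each change. Nek5 in Drd1 nuclei counted as within it at 1.23 without saline 3, against 0.59 ± 0.33 (SE). Ercc6l2 in Drd1 nuclei counted as moved at 0.60 with the strict gate, against 0.55 ± 0.07 (SE).

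The number of called genes depended strongly on the processing, and the cause was not tested. It was 3 in Drd1, 27 in Drd2, 17 in Chst9, 0 in Otof and 17 in all spiny nuclei, and 23 in astrocytes, 58 in oligodendrocytes, 0 in OPCs and 1 in microglia. With DESeq2 it was 45 in Drd1, 79 in Drd2, 131 in all spiny nuclei, 60 in astrocytes, 138 in oligodendrocytes, 2 in OPCs and 3 in microglia. With no filter on low counts it was 273 in Drd1, 351 in Drd2, 119 in Chst9, 27 in Otof, 137 in all spiny nuclei, 205 in astrocytes, 411 in oligodendrocytes, 40 in OPCs and 85 in microglia. With the strict gate it was 10 in Drd1, 8 in Drd2, 6 in Chst9, 3 in all spiny nuclei, 44 in astrocytes and 0 in microglia. With the loose gate it was 20 in Drd1, 10 in Chst9, 6 in Otof and 38 in all spiny nuclei. With sums by sex it was 20 in Drd1, 55 in all spiny nuclei, 1 in astrocytes and 0 in microglia. With at least 1000 genes it was 7 in Chst9, 19 in oligodendrocytes and 0 in microglia. Without nuclei carrying Xist and Y-linked UMIs it was 5 in Chst9, 39 in astrocytes and 4 in microglia. With each library left out it ranged from 0 to 108 in Drd1, 0 to 53 in Drd2, 2 to 8 in Chst9, 0 to 8 in Otof, 0 to 155 in all spiny nuclei, 0 to 33 in astrocytes, 8 to 48 in oligodendrocytes, 0 to 24 in OPCs and 0 to 42 in microglia. The highest counts in Drd1 and all spiny nuclei came without naloxone 5. Genes called between the sexes numbered 9, 49 with no filter.

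In glia 220 values kept their direction and side of the threshold, 17 lost a call, 4 gained one and 10 changed sign. The log2 change of Tipin in astrocytes was -0.18 without naloxone 6 (range -0.18 to 0.26 with each library left out). That of A630010A05Rikl was -0.17 without naloxone 6 and -0.02 without saline 2 in oligodendrocytes (range -0.17 to 0.63), and -0.22 without naloxone 6 in OPCs (range -0.22 to 1.22). That of Nek5 in oligodendrocytes was 0.56 with the loose gate, 0.10 without naloxone 4, 0.14 without naloxone 6 and 0.19 without saline 2 (range -0.44 to 0.19). That of Pik3r5 in microglia was -0.0217 without naloxone 4 and -0.0265 without saline 3 (range -0.0265 to 0.134). The level of Tipin in spiny neurons minus oligodendrocytes was 0.32 CPM with at least 1000 genes. The oligodendrocyte calls of Spetex2l3 and Tipin were lost with the strict gate (edgeR adjusted p = 0.115 and 0.161) and with at least 1000 genes (0.127 and 0.230). That of Tipin was also lost with the loose gate (0.0883), and that of Spetex2l3 without nuclei that held UMIs of both sexes (0.0657). With no filter, edgeR called Haus2 in oligodendrocytes, A630010A05Rikl in astrocytes and Pik3r5 between the sexes. A630010A05Rikl in astrocytes gave no value with the strict gate or with sums by sex.

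Microglial sums were small, and most members rested on under 30 UMIs there.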
